A study of Homo sapiens with 8 samples.

Results

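The HOXA cluster is a row of homeobox genes on human chromosome 7, and the 10 members described here are HOXA2, HOXA3, HOXA4, HOXA5, HOXA6, HOXA7, HOXA9, HOXA10, HOXA11 and HOXA13. They were taken by name, as 10 of the 61209 gene names of the count table. RNA was sequenced from the established human embryonic stem line H1 with an Msx1-P2A-tdTomato reporter, in which a red fluorescent protein follows the homeobox gene MSX1. The cells were first guided towards lateral plate mesoderm, the tissue from which limb buds grow, with 50 ng/mL of Activin A, 6 µM of CHIR99021 (which inhibits GSK3), 40 ng/mL of BMP4 and 10 ng/mL of FGF2. Then came 3 days with 60 ng/mL of BMP4 and 1 µM of CHIR99021. On day 4 they were taken apart and set up as pellets, with 25000 cells in a well. The 4 groups of 2 libraries each, all harvested on day 8, were FGF8+10 Pdgfra-positive, FGF8+10 Pdgfra-low, Mock Pdgfra-positive and Mock Pdgfra-low. FGF8+10 means FGF8 and FGF10 at 500 ng/mL each, while the labels do not describe the Mock medium. All groups were sorted as Msx1-positive cells and then by the level of PDGFRA, a growth factor receptor of mesenchyme. The sort came after the treatment, so the cells in a gate may differ in kind between the treatments. The labels call the replicates biological but do not say whether they came from separate differentiations, so p-values here measure the spread between these libraries, part of which may be technical.

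HOX proteins are transcription factors that give cells their position along the body and limb axes. Within a cluster, genes at the 3′ end are switched on earlier and act nearer the head, and genes at the 5′ end are switched on later and act nearer the tail, an order called collinearity. In limb buds, the 5′ genes also mark levels from shoulder to digits: HOXA11 is known for the forearm and lower leg, and HOXA13 for the hand and foot. FGF8 and FGF10 are part of the signalling loop between the limb bud's epithelial ridge and its mesenchyme.

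The cluster as described here runs from the 3′ end of HOXA2 to the 5′ end of HOXA13, over 99.7 kb of chromosome 7 (GRCh38, 27100354 to 27200091, minus strand). The stretches of 250 bases before the RefSeq transcription start are shown for 2 members that rose with FGF8+10, HOXA2 and HOXA9, and for the 2 that fell, HOXA11 and HOXA13. Of the 10 members, 9 have an entry in the RefSeq table of starts (GRCh38.p14), and 7 of those have a single start. HOXA5 has none. Capitals mark matches on either strand to CCAAT (the CCAAT box), TTTATG (the type of site bound by CDX proteins) and TGATNNAT (the type bound by PBX with HOX proteins). No match overlapped a match to another of these motifs. All sequences read 5′ to 3′ towards the gene.
HOXA2 (chr7:27102684-27102933, minus strand): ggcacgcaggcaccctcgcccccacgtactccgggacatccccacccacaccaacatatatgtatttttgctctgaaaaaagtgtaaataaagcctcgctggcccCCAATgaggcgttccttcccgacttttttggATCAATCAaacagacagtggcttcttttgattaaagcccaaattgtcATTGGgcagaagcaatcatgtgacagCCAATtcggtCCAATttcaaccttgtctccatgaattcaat
HOXA9 (chr7:27165538-27165787, minus strand): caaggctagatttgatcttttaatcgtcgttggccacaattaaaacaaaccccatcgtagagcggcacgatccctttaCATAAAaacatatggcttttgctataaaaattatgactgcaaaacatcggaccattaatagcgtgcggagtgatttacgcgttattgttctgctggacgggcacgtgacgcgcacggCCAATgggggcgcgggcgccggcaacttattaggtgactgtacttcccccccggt
HOXA11 (chr7:27185233-27185482, minus strand): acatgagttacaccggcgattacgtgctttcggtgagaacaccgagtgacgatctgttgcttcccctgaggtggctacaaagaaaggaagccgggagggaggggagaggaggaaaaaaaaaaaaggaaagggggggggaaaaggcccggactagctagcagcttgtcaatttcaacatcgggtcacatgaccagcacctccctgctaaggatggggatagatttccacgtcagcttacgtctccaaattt
HOXA13 (chr7:27200092-27200341, minus strand): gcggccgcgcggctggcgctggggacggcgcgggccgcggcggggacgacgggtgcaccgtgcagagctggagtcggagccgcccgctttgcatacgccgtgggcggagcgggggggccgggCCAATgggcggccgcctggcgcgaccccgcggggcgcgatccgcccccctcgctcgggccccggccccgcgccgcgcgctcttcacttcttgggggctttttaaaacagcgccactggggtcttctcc
The HOXA2 stretch holds 4 CCAAT matches and 1 TGATNNAT match, and the HOXA9 stretch holds 1 CCAAT and 1 TTTATG match. HOXA13 has 1 CCAAT match, and the HOXA11 window holds none of these letters. Among 35116 listed starts of all genes, 32.0% have a CCAAT match in the same window, 9.64% a TTTATG match and 6.47% a TGATNNAT match. The HOXA13 stretch is 78.0% G and C and holds 40 CG dinucleotides, against medians of 58.0% and 11 over all starts. HOXA11 has 51.6% and 11, HOXA9 48.8% and 20, and HOXA2 47.2% and 8. HOXA7, which rose in both populations and whose stretch is not shown, has 70.8% and 28. HOXA4, also not shown, rose in Pdgfra-low cells and has 26 CG dinucleotides. Of the 2 members that fell, HOXA13 was above the median number of CG dinucleotides and HOXA11 equal to it. Whether this number goes with the direction of change was not tested. The HOXA4, HOXA6 and HOXA7 stretches and both HOXA10 stretches each hold 1 CCAAT match and no TTTATG or TGATNNAT match. HOXA3 has 7 listed starts. The stretch before the start nearest its 5′ end holds 3 TTTATG matches and 1 CCAAT match, and the others hold no match. HOXA2 and HOXA9 are thus the only members with a single start that hold a TTTATG or TGATNNAT match, and the stretches shown do not stand for all members that rose. These matches describe the sequence and show no binding.

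Most members share exon bases with other annotated RNAs, several of which run the other way. Reads were counted without regard to strand and those over more than 1 gene were dropped, so most members were counted on part of their exons. HOXA2 and HOXA5 overlap no other annotated exon, and HOXA13 has 98.3% of its exon bases to itself. For HOXA3, HOXA9, HOXA10 and HOXA11 this part was 80.2%, 73.0%, 73.7% and 72.8%. It was lowest for HOXA7 (37.5%), HOXA4 (52.2%) and HOXA6 (59.9%), which HOXA-AS3 overlaps. These fractions are set by the annotation and are the same for every library. Without strand, antisense reads within a member's own exons cannot be told apart from its own.

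Libraries held 47698561 to 64390444 counts, of which 4588 to 9633 fell on the 10 members. Each read pair could count for both of its mates, so independent fragments are fewer than counts. Between groups, levels are given as CPM (counts scaled to library size, adjusted by TMM), and fold changes as log2 values ± SE from 1 edgeR quasi-likelihood model over all 8 libraries. "Rose" and "fell" are used where p, adjusted by Benjamini-Hochberg over all 22554 tested genes, was under 0.05. In bulk RNA, fewer cells of a type and less RNA per cell cannot be told apart.

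Per unit of exon length, the cluster was read mostly from its 5′ end in all 4 groups. In TPM (transcript abundance after division by exon length), HOXA13 averaged 75.9 in FGF8+10 Pdgfra-positive, 54.3 in FGF8+10 Pdgfra-low, 137 in Mock Pdgfra-positive and 126 in Mock Pdgfra-low cells. It stood 3.82, 3.19, 5.04 and 5.51 times above HOXA11, the next in line, in those groups. In every group the order by mean TPM was HOXA13, HOXA11, HOXA10, HOXA9 and HOXA5, which is the order of the cluster from its 5′ end except that HOXA5 stood above HOXA7 and HOXA6. The libraries of HOXA11 and HOXA10, and of HOXA10 and HOXA9, overlapped in FGF8+10 Pdgfra-low cells. Those of HOXA9 and HOXA5 overlapped in Mock Pdgfra-positive cells. On full exon length, those neighbours did not differ there beyond their spread. The remaining 5 members had mean levels of 1.19 to 3.42, 1.21 to 3.55, 0.67 to 2.75 and 0.0935 to 1.7 TPM in the same groups. Their order changed from group to group and several neighbours overlapped. HOXA4 was lowest in 3 of the 4 groups, and HOXA7 in Mock Pdgfra-positive cells. This ranking uses full exon length, while only 52.2% of HOXA4 and 37.5% of HOXA7 exon bases could be counted. The ranks of these low members therefore depend on the length used. The ratios of HOXA13 to HOXA11 do as well, with 98.3% and 72.8% of their exon bases countable.

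FGF8+10 cells had a cluster that was less dominated by HOXA13. HOXA13 made up 48.6% ± 0.85 of the summed TPM of the 10 genes in FGF8+10 Pdgfra-positive cells, against 69.5% ± 0.37 in Mock Pdgfra-positive cells (SD, n = 2 libraries each). In Pdgfra-low cells it made up 44.1% ± 1.0 with FGF8+10, against 73.5% ± 0.68 with Mock. HOXA2 to HOXA10 together averaged 60.5 TPM with FGF8+10 against 32.8 TPM with Mock in Pdgfra-positive cells, and 51.7 TPM against 22.6 TPM in Pdgfra-low cells. HOXA11 and HOXA13 together went the other way, with 95.7 TPM against 164 TPM in Pdgfra-positive and 71.3 TPM against 149 TPM in Pdgfra-low cells. The members were divided here where the direction of change turned in these same libraries. The sums therefore restate the changes of single members, add no support to them and were not tested. The sum of all 10 was lower with FGF8+10, at 156 TPM against 197 TPM in Pdgfra-positive and 123 TPM against 171 TPM in Pdgfra-low cells. Shares depend on the exon length used: over exon bases that no other gene overlaps, HOXA13 made up 41.4% and 37.1% with FGF8+10 against 63.1% and 67.4% with Mock, Pdgfra-positive cells first in each pair.

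**Figure D1:**
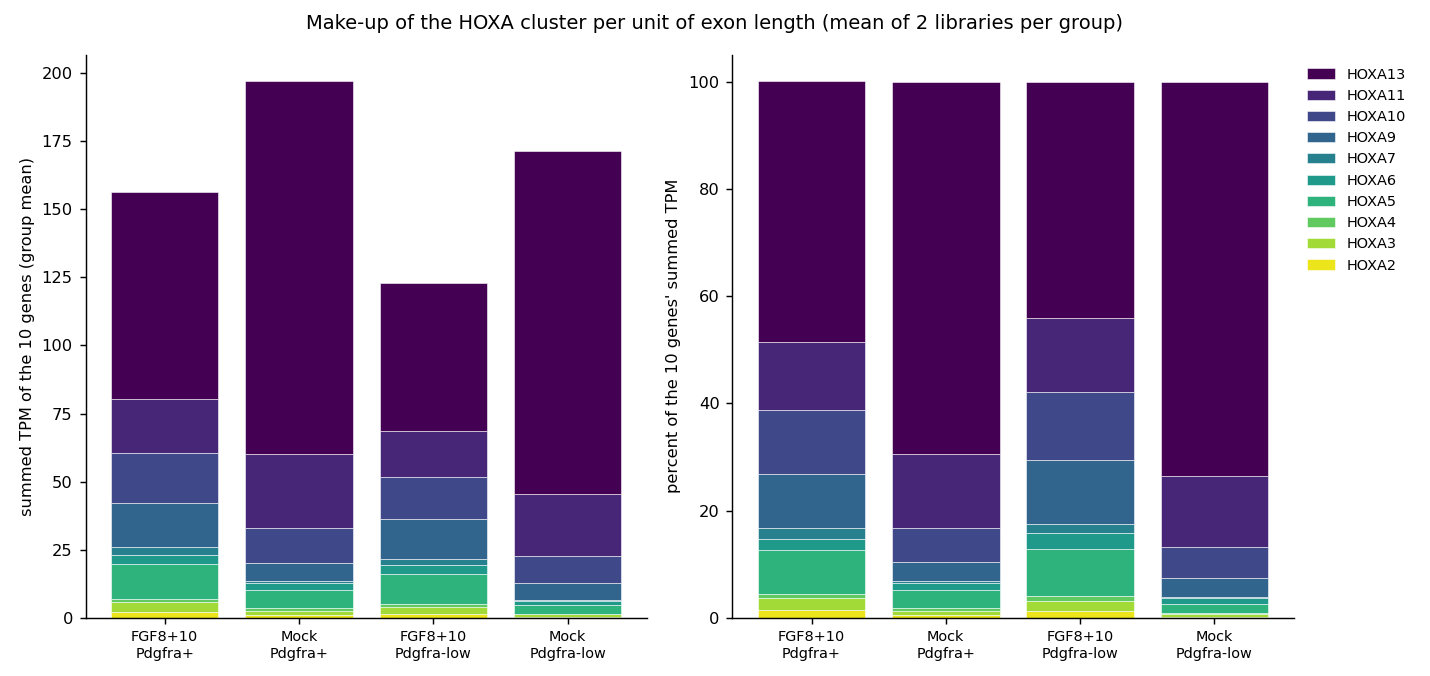
Summed TPM of the 10 HOXA genes (left, mean of 2 libraries per group) and the percent of that sum from each gene (right), stacked in cluster order with HOXA13 on top. HOXA13 fills 48.6% and 44.1% of the FGF8+10 bars, against 69.5% and 73.5% of the Mock bars.

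With FGF8+10, 6 of the 10 members rose and 2 fell in Pdgfra-positive cells, and in all genes 25.8% rose and 25.1% fell, so a change as such was common. In Pdgfra-low cells 7 rose and 2 fell, where 27.9% of all genes rose and 27.7% fell. The members that rose lie from HOXA2 to HOXA10, and the 2 that fell, in both populations, are HOXA11 and HOXA13 at the 5′ end. At 2-fold or more, 4 rose and 0 fell by edgeR in Pdgfra-positive cells and 6 rose and 1 fell in Pdgfra-low cells, where 17.1% and 21.3% of all genes changed by as much in either direction. The median log2 fold change of the 10 was 0.63 in Pdgfra-positive and 1.12 in Pdgfra-low cells, against -0.01 and -0.02 over all tested genes. The libraries of FGF8+10 and Mock did not overlap for 8 members in Pdgfra-positive cells and for all 10 in Pdgfra-low cells, while this held for 73.6% and 76.0% of all genes.

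**Figure D2:**
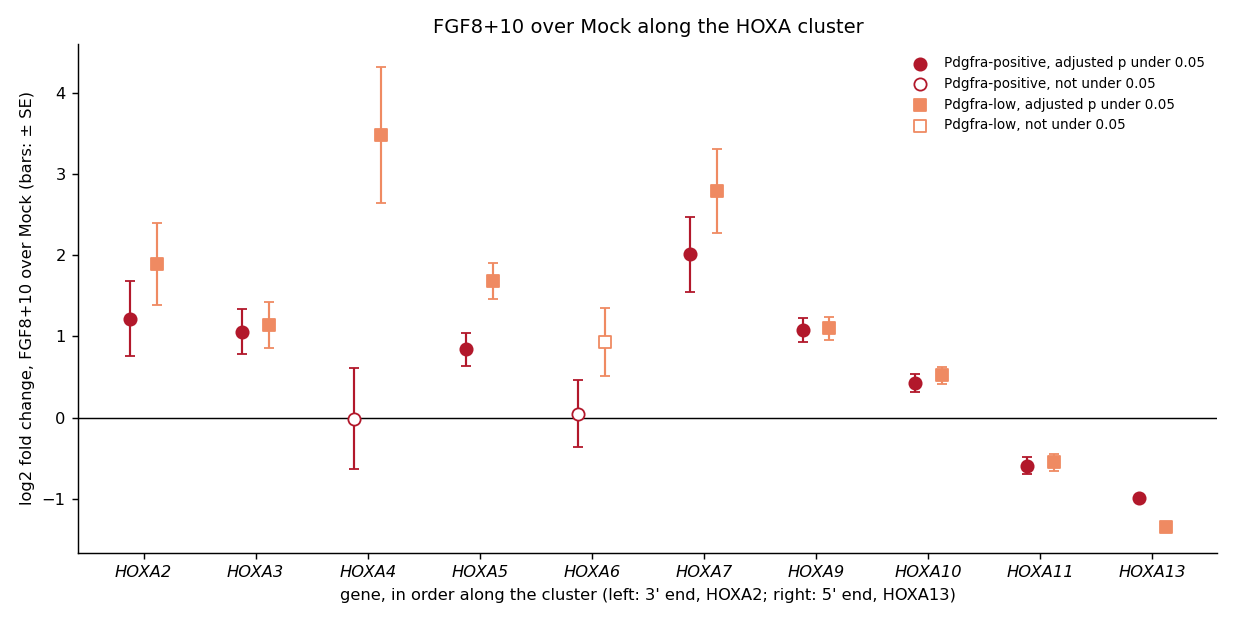
Log2 fold change of FGF8+10 over Mock (vertical axis, bars ± SE) for each HOXA gene in cluster order, in Pdgfra-positive (circles) and Pdgfra-low cells (squares), filled where adjusted p was under 0.05. Points from HOXA2 to HOXA10 lie above 0 except HOXA4 in Pdgfra-positive cells (-0.01), and HOXA11 and HOXA13 lie below 0 in both populations.

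The 3′ genes HOXA2, HOXA3 and HOXA4 are best known from the head and neck. HOXA2, which patterns the hindbrain and the second pharyngeal arch, had 0.859 and 1.05 CPM in FGF8+10 Pdgfra-positive libraries, against 0.269 and 0.540 CPM in Mock Pdgfra-positive libraries. Its levels in Pdgfra-low cells were 0.679 and 0.614 CPM with FGF8+10, against 0.214 and 0.132 CPM with Mock. Both FGF8+10 libraries lay above both Mock libraries in each population. HOXA2 rose by 1.22 ± 0.457 in Pdgfra-positive (adjusted p = 0.0225) and by 1.89 ± 0.507 in Pdgfra-low cells (adjusted p = 0.0014). The call in Pdgfra-positive cells was lost without FGF8+10 Pdgfra-positive replicate 2 (1.09, adjusted p = 0.132) and without Mock Pdgfra-positive replicate 1 (0.82, adjusted p = 0.236), and without Mock Pdgfra-positive replicate 2 the value was 1.82.

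HOXA3, needed for the thymus and parathyroid glands, had 2.34 and 3.08 CPM in FGF8+10 Pdgfra-positive libraries, against 1.48 and 1.12 CPM in Mock Pdgfra-positive libraries. Pdgfra-low cells had 2.26 and 1.42 CPM with FGF8+10, against 0.854 and 0.810 CPM with Mock. Every FGF8+10 library lay above both Mock libraries of its population, though the FGF8+10 libraries spread widely. HOXA3 rose by 1.06 ± 0.272 (adjusted p = 0.000941) and by 1.14 ± 0.287 (adjusted p = 0.000695) in Pdgfra-positive and Pdgfra-low cells. Without FGF8+10 Pdgfra-low replicate 1, the second value was 0.76 with adjusted p = 0.0604.

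HOXA4, a gene of the neck vertebrae in mice, is the member in which the populations differed most. It had 0.429 and 0.324 CPM in FGF8+10 Pdgfra-positive libraries, against 0.448 and 0.311 CPM in Mock Pdgfra-positive libraries, which overlap. In Pdgfra-low cells it had 0.302 and 0.477 CPM with FGF8+10, against 0.0493 and 0.0165 CPM with Mock. The Mock Pdgfra-low group alone was close to silent, with 4 counts over its 2 libraries. The log2 fold change was -0.01 ± 0.626 in Pdgfra-positive cells (adjusted p = 0.993), with a sign that turned under other settings. In Pdgfra-low cells HOXA4 rose by 3.48 ± 0.834 (adjusted p = 0.000375), and by 4.39 without Mock Pdgfra-low replicate 1. The fitted size depends on the prior count. Counted in read pairs, 22 against 2, the ratio was 12 with an exact binomial 95% interval of 2.94 to 105, which covers counting error only.

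HOXA5, HOXA6 and HOXA7 are the central genes of the cluster, with roles in the trunk. HOXA5, which shapes the lung and the skeleton at the neck and chest in mice, had 4.18 and 4.05 CPM in FGF8+10 Pdgfra-positive libraries, against 2.51 and 2.1 CPM in Mock Pdgfra-positive libraries. Its levels in Pdgfra-low cells were 3.85 and 3.12 CPM with FGF8+10, against 1.07 and 1.11 CPM with Mock. The treatments did not overlap, and the Mock Pdgfra-low libraries were the lowest of all. HOXA5 rose by 0.84 ± 0.205 (adjusted p = 0.000542) in Pdgfra-positive and by 1.68 ± 0.221 (adjusted p = 8.29e-09) in Pdgfra-low cells.

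HOXA6 had 0.814 and 0.677 CPM in FGF8+10 Pdgfra-positive libraries, against 0.560 and 0.872 CPM in Mock Pdgfra-positive libraries. Pdgfra-low cells had 1.02 and 0.682 CPM with FGF8+10, against 0.378 and 0.513 CPM with Mock. The groups overlapped in Pdgfra-positive and did not in Pdgfra-low cells. Neither difference passed the test, at 0.05 ± 0.408 (adjusted p = 0.928) and 0.93 ± 0.418 (adjusted p = 0.0568). The second passed when libraries were scaled by their totals alone (1.09, adjusted p = 0.0241) and without FGF8+10 Pdgfra-low replicate 2 (1.19, adjusted p = 0.0379).

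HOXA7, a trunk gene whose neighbour on the 5′ side here is HOXA9, had 1.45 and 1.24 CPM in FGF8+10 Pdgfra-positive libraries, against 0.157 and 0.498 CPM in Mock Pdgfra-positive libraries. In Pdgfra-low cells it had 0.962 and 1.01 CPM with FGF8+10, against 0.230 and 0.0496 CPM with Mock. Every FGF8+10 library was well above every Mock library, and the Mock libraries of a group were far apart. HOXA7 rose by 2.01 ± 0.460 (adjusted p = 0.000238) and by 2.79 ± 0.513 (adjusted p = 7.61e-06). It had the largest log2 fold change of the 10 members in Pdgfra-positive cells and stood next to HOXA4 in Pdgfra-low cells. The size rested on single Mock libraries, with 3.09 in Pdgfra-positive cells without Mock Pdgfra-positive replicate 2, and with 4.25 and 2.09 in Pdgfra-low cells without Mock Pdgfra-low replicate 1 and replicate 2. In read pairs, 55 against 9 in Pdgfra-low cells, the ratio was 6.64 (exact binomial 95% interval 3.26 to 15.3).

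**Figure D3:**
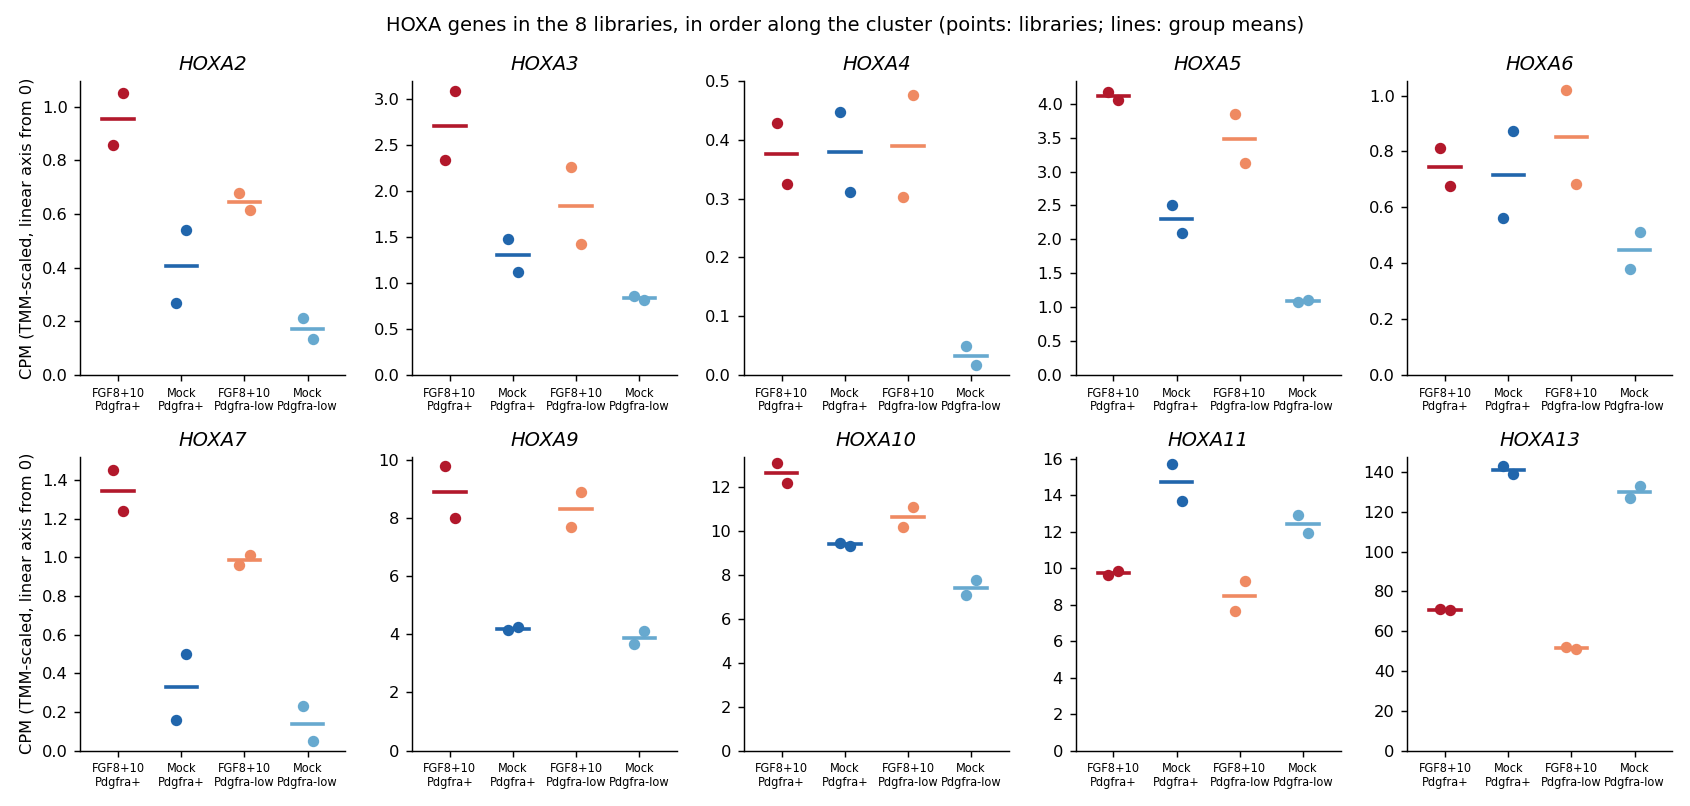
CPM of each HOXA gene (vertical axes, linear from 0) in the 8 libraries, in cluster order, with a point per library and a line at each group's mean. FGF8+10 points lie above Mock points from HOXA7 to HOXA10 and below them for HOXA11 and HOXA13, where HOXA13 had 70.4 to 71.0 and 50.8 to 51.9 CPM with FGF8+10 against 139 to 143 and 127 to 133 CPM with Mock.

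HOXA9 and HOXA10 stand where the direction turned. HOXA9, which in mice acts with other genes of its paralogue group in setting up the forelimb bud, had 9.79 and 7.99 CPM in FGF8+10 Pdgfra-positive libraries, against 4.14 and 4.25 CPM in Mock Pdgfra-positive libraries. Its levels in Pdgfra-low cells were 7.68 and 8.90 CPM with FGF8+10, against 3.65 and 4.10 CPM with Mock. All 4 FGF8+10 libraries lay above all 4 Mock libraries. HOXA9 rose by 1.08 ± 0.144 (adjusted p = 1.37e-08) and by 1.10 ± 0.143 (adjusted p = 6.55e-09), a fold of 2.12 and 2.14. HOXA10, known for the lumbar spine and the uterus, had 13.1 and 12.2 CPM in FGF8+10 Pdgfra-positive libraries, against 9.48 and 9.34 CPM in Mock Pdgfra-positive libraries. Pdgfra-low cells had 10.2 and 11.1 CPM with FGF8+10, against 7.11 and 7.76 CPM with Mock. The difference was smaller than for HOXA9 but again without overlap, at 0.43 ± 0.108 (adjusted p = 0.000811) and 0.52 ± 0.11 (adjusted p = 6.67e-05).

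HOXA11, the gene of the forearm level, was the next along the cluster and went the other way. It had 9.63 and 9.85 CPM in FGF8+10 Pdgfra-positive libraries, against 15.7 and 13.7 CPM in Mock Pdgfra-positive libraries. In Pdgfra-low cells it had 7.66 and 9.29 CPM with FGF8+10, against 12.9 and 11.9 CPM with Mock. Every FGF8+10 library lay below every Mock library. The log2 fold change was -0.59 ± 0.107 (adjusted p = 6.89e-06) in Pdgfra-positive and -0.55 ± 0.109 (adjusted p = 3.14e-05) in Pdgfra-low cells.

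HOXA13, the last gene of the cluster, which is needed for digits and the urogenital tract, had 71.0 and 70.4 CPM in FGF8+10 Pdgfra-positive libraries, against 143 and 139 CPM in Mock Pdgfra-positive libraries. Its levels in Pdgfra-low cells were 51.9 and 50.8 CPM with FGF8+10, against 127 and 133 CPM with Mock. Replicates lay close together and the treatments far apart. HOXA13 fell by 0.99 ± 0.0364 on the log2 scale in Pdgfra-positive cells (adjusted p = 4.21e-27) and by 1.34 ± 0.0376 in Pdgfra-low cells (adjusted p = 9.05e-32), to 0.503 and 0.395 of the Mock level. Its biological coefficient of variation, 2.41%, was the lowest of the 10, and that of HOXA4, 32.9%, the highest.

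The FGF8+10 effect in Pdgfra-positive cells minus that in Pdgfra-low cells was tested for each member. It passed for 3 of the 10, where it did for 26.0% of all genes, and for HOXA4 alone at 2-fold or more, where it did for 4.44%. HOXA13 had a difference of 0.35 ± 0.0522 (adjusted p = 6.83e-07), which means a smaller fall in Pdgfra-positive cells. HOXA4 had -3.49 ± 1.06 (adjusted p = 0.0103), a value that rests on the near-silent Mock Pdgfra-low group and was -4.40 without Mock Pdgfra-low replicate 1 and -2.94, with adjusted p = 0.0581, without Mock Pdgfra-low replicate 2. HOXA5 had -0.84 ± 0.302 (adjusted p = 0.0344). This call was lost in 6 of the 8 fits that left out a library (adjusted p 0.0702 to 0.167), all but those without FGF8+10 Pdgfra-low replicate 2 and without Mock Pdgfra-positive replicate 2, and it was also lost with no filter on low counts (-0.81, adjusted p = 0.0659) and in limma voom (-0.81, adjusted p = 0.0637). For HOXA9, HOXA10 and HOXA11 the differences were -0.02 ± 0.203, -0.10 ± 0.154 and -0.05 ± 0.153, and for HOXA2, HOXA3, HOXA6 and HOXA7 they were -0.66, -0.08, -0.87 and -0.78 with SEs of 0.393 to 0.705.

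The sorted populations were also compared within each treatment. This comparison uses the same 8 libraries as the treatment comparison, so its values are not independent of those above. Under FGF8+10, 1 of the 10 members was higher in Pdgfra-positive than in Pdgfra-low cells and 0 were lower by edgeR, where 19.6% of all genes were higher and 21.7% lower. DESeq2 and limma voom also called 0 lower, as did edgeR at an unadjusted p under 0.05. At 2-fold or more, 0 members and 6.38% of all genes differed. The member called was HOXA13, at 0.46 ± 0.0384 (adjusted p = 4.88e-14). The HOXA3 and HOXA10 differences, 0.56 ± 0.259 (adjusted p = 0.0795) and 0.24 ± 0.105 (adjusted p = 0.0607), passed in limma voom and in a fit of the 4 FGF8+10 libraries alone, and HOXA3 also without FGF8+10 Pdgfra-low replicate 1 (0.94, adjusted p = 0.0205). HOXA11, at 0.20 ± 0.11 (adjusted p = 0.158), passed without FGF8+10 Pdgfra-low replicate 2 (0.35, adjusted p = 0.0402). For HOXA2, HOXA5, HOXA7 and HOXA9 the values were 0.56, 0.24, 0.45 and 0.10, and for HOXA4 and HOXA6 -0.05 and -0.18.

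Under Mock, 4 members were higher in Pdgfra-positive than in Pdgfra-low cells and 0 lower by edgeR, where 12.4% of all genes were higher and 13.4% lower. All 10 values were above 0 in edgeR. At 2-fold or more, 2 members and 3.88% of all genes differed. The 4 were HOXA4 at 3.44 ± 0.845 (adjusted p = 0.00142), HOXA5 at 1.08 ± 0.231 (adjusted p = 0.000271), HOXA10 at 0.34 ± 0.113 (adjusted p = 0.0207) and HOXA13 at 0.12 ± 0.0353 (adjusted p = 0.0114). For HOXA4, 18 read pairs against 2 gave a ratio of 11.8 (exact binomial 95% interval 2.82 to 105), and the log2 value was 4.34 without Mock Pdgfra-low replicate 1. The HOXA10 call was lost without Mock Pdgfra-positive replicate 1 (0.33), without Mock Pdgfra-positive replicate 2 (0.35) and without Mock Pdgfra-low replicate 1 (0.27). The HOXA13 call was lost without Mock Pdgfra-positive replicate 1 (0.09), without Mock Pdgfra-low replicate 1 (0.08) and with no filter on low counts (0.09). HOXA2 and HOXA7, at 1.22 ± 0.536 (adjusted p = 0.093) and 1.23 ± 0.581 (adjusted p = 0.124), passed without Mock Pdgfra-positive replicate 1 (1.63 and 1.81), and HOXA7 also without Mock Pdgfra-low replicate 1 (2.68). HOXA3, HOXA6, HOXA9 and HOXA11 stood at 0.64, 0.69, 0.12 and 0.24. Pdgfra-positive libraries lay above Pdgfra-low libraries without overlap for 7 members under FGF8+10 and 9 under Mock, where 67.2% and 58.7% of all genes did not overlap in either direction.

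**Figure D4:**
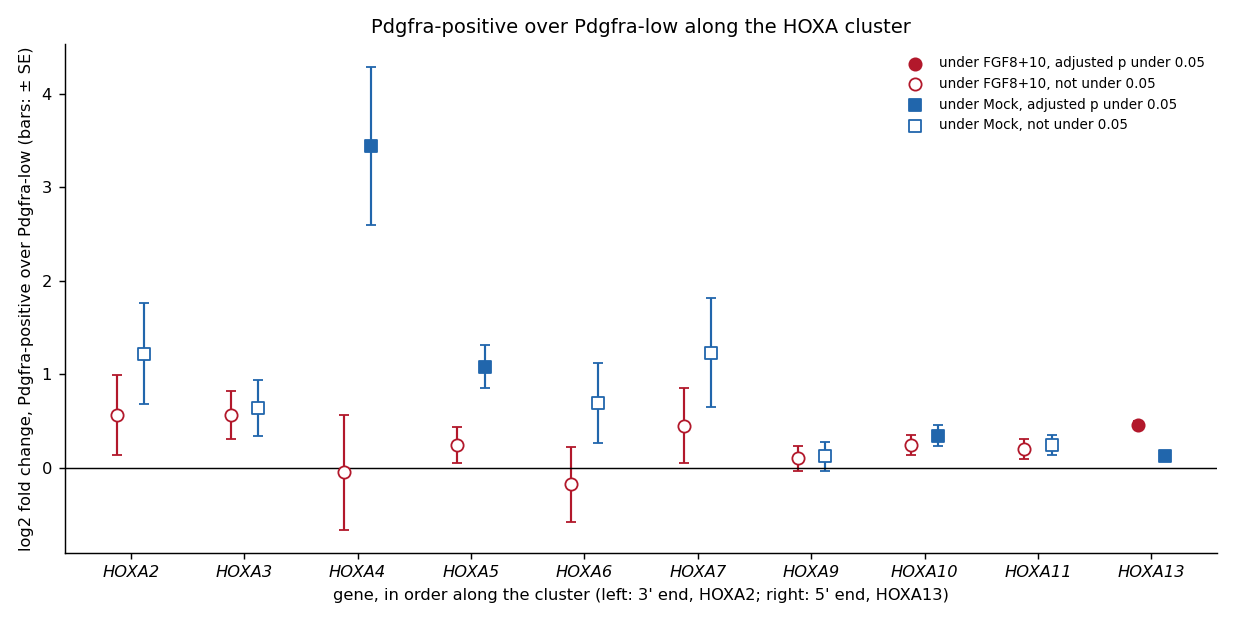
Log2 fold change of Pdgfra-positive over Pdgfra-low cells (vertical axis, bars ± SE) for each HOXA gene in cluster order, under FGF8+10 (circles) and under Mock (squares), filled where adjusted p was under 0.05. All points lie above 0 except HOXA4 (-0.05) and HOXA6 (-0.18) under FGF8+10, and HOXA4 under Mock stands highest at 3.44.

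The noncoding RNAs of the locus were low. Of 7 listed, 6 were tested, and 1 rose with FGF8+10 in Pdgfra-positive cells while 2 rose and 1 fell in Pdgfra-low cells. HOXA-AS2 rose by 1.19 ± 0.435 (adjusted p = 0.02) in Pdgfra-positive cells, with 1.01 CPM against 0.444 CPM. In Pdgfra-low cells HOXA-AS3, whose exons overlap those of HOXA3, HOXA4, HOXA6 and HOXA7, rose by 1.24 ± 0.428 (adjusted p = 0.0124) and HOXA10-AS by 1.56 ± 0.381 (adjusted p = 0.000476). HOXA11-AS fell there by 0.52 ± 0.206 (adjusted p = 0.0303), the direction of HOXA11, while in Pdgfra-positive cells its value was -0.28 ± 0.201 (adjusted p = 0.263). HOTTIP, a noncoding RNA beside HOXA13 that is known for keeping 5′ HOXA genes active, averaged 2.46 CPM with FGF8+10 against 2.14 CPM with Mock in Pdgfra-positive cells, and 1.84 CPM against 1.81 CPM in Pdgfra-low cells. Its log2 fold changes, 0.19 ± 0.238 (adjusted p = 0.529) and 0.03 ± 0.244 (adjusted p = 0.943), did not pass the test. EVX1, the homeobox gene beyond HOXA13, averaged 12 and 7.26 CPM with FGF8+10, against 9.92 and 8.64 CPM with Mock, and passed the test in neither population (0.27 and -0.25). SKAP2, the gene beyond the 3′ end, rose by 0.37 ± 0.0961 and 0.42 ± 0.0958. Of the 5 flanking genes listed, 1 rose and 2 fell in each population, and the 2 that fell were HIBADH and TAX1BP1.

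The other clusters gave a comparison by paralogue group, the number that HOX genes at matching places in the 4 clusters share. Of the 28 HOXB, HOXC and HOXD genes in the list, 24 were tested, and 20 rose and 1 fell with FGF8+10 in each population. In groups 2 to 10 every tested HOXB and HOXD gene rose in both populations, 8 and 5 genes, as did HOXC8, HOXC9 and HOXC10, 3 of the 6 HOXC genes. HOXC10 had the largest change of the list, at 3.36 ± 0.261 and 4.78 ± 0.249. HOXC4 passed the test in Pdgfra-positive cells (0.52, and 0.12 with adjusted p = 0.0501 in Pdgfra-low cells), and HOXC6 in Pdgfra-low cells (0.13, and -0.05 in Pdgfra-positive cells). The clusters parted at their 5′ ends. HOXB13 fell like HOXA13, with 51.6 and 32.3 CPM with FGF8+10 against Mock levels of 60.6 and 47.5 CPM in Pdgfra-positive and Pdgfra-low cells, and log2 fold changes of -0.23 ± 0.049 and -0.56 ± 0.0513. HOXD13 rose, with 14.7 and 8.76 CPM against 8.99 and 6.56 CPM, by 0.71 ± 0.109 and 0.42 ± 0.114. HOXD11 rose by 1.42 ± 0.106 and 1.41 ± 0.112, where HOXA11 fell. HOXD12 rose by 2.64 ± 0.341 and 1.82 ± 0.360, and HOXC11 did not pass the test (0.70 ± 0.868 and 1.09 ± 0.833). Genes of these clusters that share exon sequence with a neighbour or an antisense RNA were likewise counted on part of their exons. The effect on HOXB13 differed between the populations as that on HOXA13 did, by 0.32 ± 0.0709 (adjusted p = 0.000351).

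**Figure D5:**
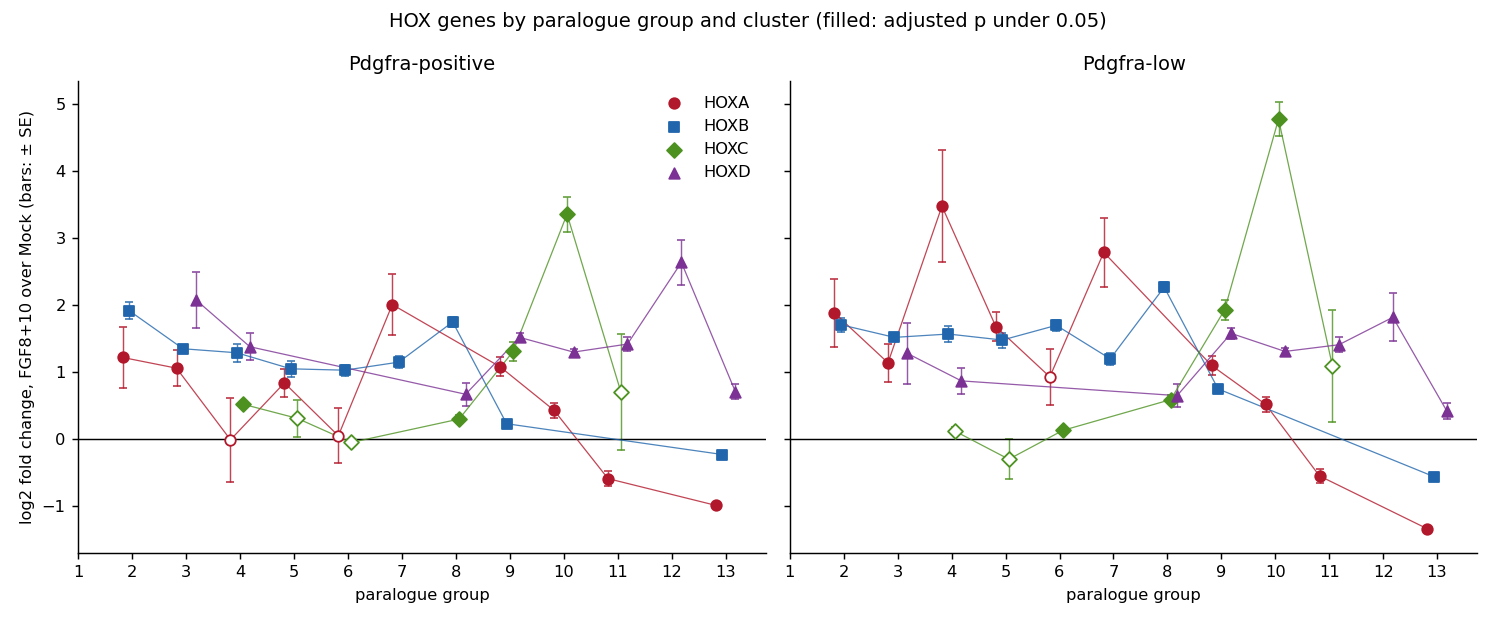
Log2 fold change of FGF8+10 over Mock (vertical axis, bars ± SE) by paralogue group (horizontal axis) for tested genes of the 4 HOX clusters, in Pdgfra-positive (left) and Pdgfra-low cells (right), filled where adjusted p was under 0.05. HOXA11, HOXA13 and HOXB13 are the filled points below 0 in both panels, and HOXD11 to HOXD13 lie above 0.

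In TPM, which carries no TMM adjustment, the HOXA cluster was the only one of the 4 whose sum was lower with FGF8+10. This difference was not tested. The 10 HOXA genes summed to 153 to 159 TPM in FGF8+10 Pdgfra-positive and 193 to 200 TPM in Mock Pdgfra-positive libraries. The 10 HOXB genes summed to 551 to 568 TPM in FGF8+10 Pdgfra-positive and 311 to 313 TPM in Mock Pdgfra-positive libraries. In the same groups the 9 HOXC genes summed to 289 to 293 TPM against 196 to 199 TPM, and the 9 HOXD genes to 464 to 474 TPM against 165 to 173 TPM. In Pdgfra-low cells the sums were 123 TPM for HOXA with FGF8+10 against 169 to 174 TPM with Mock, 725 to 733 TPM against 304 to 311 TPM for HOXB, 283 to 293 TPM against 181 to 183 TPM for HOXC, and 248 to 258 TPM against 97.4 to 98.1 TPM for HOXD. Among genes of paralogue group 13, HOXA13 had 75.4 to 76.3 TPM and HOXB13 91.4 to 93.3 TPM in FGF8+10 Pdgfra-positive libraries, against 135 to 139 and 97 to 99.7 TPM in Mock Pdgfra-positive libraries. HOXA13 was thus below HOXB13 with FGF8+10 and above it with Mock in Pdgfra-positive cells. HOXC13 stayed at or under 0.237 TPM in every library.

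HOX proteins bind DNA with cofactors of the TALE class, encoded by PBX, MEIS and PKNOX genes. Of 9 listed, 4 rose and 3 fell with FGF8+10 in Pdgfra-positive cells and 2 rose and 5 fell in Pdgfra-low cells. PBX3 rose by 1.57 ± 0.0626 and 1.45 ± 0.0609 and MEIS2 by 0.49 ± 0.036 and 0.49 ± 0.0356. PBX4 fell by 0.92 ± 0.253 and 1.19 ± 0.256. Of 12 listed genes that act upstream of HOX clusters, 7 were tested, and 2 rose and 1 fell in Pdgfra-positive cells and 2 rose and 3 fell in Pdgfra-low cells. CDX2, a homeobox factor known to activate central HOX genes, averaged 112 ± 4.29 and 106 ± 2.91 CPM with FGF8+10, against 34.8 ± 3.41 and 20.5 ± 0.61 CPM with Mock. It rose by 1.69 ± 0.0494 and 2.36 ± 0.0515 in Pdgfra-positive and Pdgfra-low cells. ALDH1A2, which makes retinoic acid, an inducer of 3′ HOX genes, averaged 79.0 ± 5.39 and 45.6 ± 0.886 CPM with FGF8+10, against 7.73 ± 0.891 and 0.437 ± 0.13 CPM with Mock. It rose by 3.35 ± 0.0758 and 6.70 ± 0.120, and RARG, a retinoic acid receptor gene, fell by 0.69 ± 0.0484 and 1.25 ± 0.05. RARB, another receptor gene, passed the test in neither population (0.33 ± 0.153 and -0.03 ± 0.155). RARA, a further one, fell in Pdgfra-low cells only (-0.11 ± 0.0723 and -0.44 ± 0.0756). Whether retinoic acid signalling changed was not tested.

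Polycomb and trithorax proteins keep HOX genes shut or open. Of 21 listed, 8 rose and 7 fell with FGF8+10 in Pdgfra-positive cells and 7 rose and 9 fell in Pdgfra-low cells. EZH2, the histone methyltransferase of Polycomb, averaged 77.4 and 92.0 CPM with FGF8+10 against 35.1 and 42 CPM with Mock and rose by 1.14 ± 0.0475 and 1.13 ± 0.0456. CBX2, a Polycomb subunit, rose by 0.78 ± 0.0449 and 0.83 ± 0.0446. Of 20 limb-bud genes linked to HOXA proteins, 19 were tested, and 9 rose and 7 fell in Pdgfra-positive cells and 8 rose and 7 fell in Pdgfra-low cells. GREM1, a BMP antagonist of the limb bud, had 5.86 to 5.92 CPM in FGF8+10 Pdgfra-positive and 9.86 to 10.4 CPM in FGF8+10 Pdgfra-low libraries, against 0.083 to 0.202 CPM in Mock Pdgfra-positive and 0 to 0.0329 CPM in Mock Pdgfra-low libraries, and rose in both populations. FGF10, whose protein was also added to the medium, averaged 45.1 and 33.9 CPM with FGF8+10, against 2.59 and 2.62 CPM with Mock, and rose by 4.12 ± 0.0961 and 3.69 ± 0.093. BMP2 rose by 2.16 ± 0.0456 and 2.75 ± 0.0472. TBX4, a hindlimb gene, fell by 1.41 ± 0.0478 and 2.60 ± 0.0532, with the largest fall of the list in Pdgfra-low cells, and BMP7 fell most in Pdgfra-positive cells, by 1.61 ± 0.168. Whether these changes bear on the HOXA members was not tested.

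Markers of other cell types moved with the treatment. All 10 endothelial markers rose with FGF8+10 in Pdgfra-low cells, and 6 rose and 2 fell in Pdgfra-positive cells. They summed to 2130 to 2140 CPM in FGF8+10 Pdgfra-positive, 2580 CPM in FGF8+10 Pdgfra-low, 1330 to 1340 CPM in Mock Pdgfra-positive and 1360 to 1370 CPM in Mock Pdgfra-low libraries, most of it KDR, which mesoderm progenitors also express. PECAM1, a defining endothelial marker, averaged 2.60, 18.5, 0.939 and 0.676 CPM in those groups. Of 10 cardiac muscle markers, 8 were tested, and 5 fell in Pdgfra-positive and 6 in Pdgfra-low cells. Their sums were 23.7 to 25, 13.1 to 13.2, 151 to 156 and 146 to 152 CPM in the same order of groups, with MYH7 at 0 in FGF8+10 Pdgfra-positive and MYH6 at 0 in FGF8+10 Pdgfra-low libraries. Of 18 limb and lateral plate mesoderm markers, 17 were tested, and 9 rose and 6 fell in Pdgfra-positive cells and 6 rose and 10 fell in Pdgfra-low cells. Of 8 mesothelium and epicardium markers, 6 were tested, and 1 rose and 3 fell in Pdgfra-positive and 2 rose and 4 fell in Pdgfra-low cells. Their sums were 274, 361 to 369, 470 to 475 and 604 to 608 CPM in the same order, with ITLN1 at 0 throughout. Only 3, 3, 3 and 4 of the 8 averaged at least 1 CPM in those groups, so the sums rest on few genes. TBX18 rose in both populations (1.79 ± 0.155 and 1.49 ± 0.129) and WT1 in Pdgfra-low cells (4.41 ± 1.17). KRT19, UPK3B and TCF21 fell in both. Epithelial markers, mostly KRT8 and KRT18, summed to 246 to 247, 959 to 977, 262 to 264 and 603 to 605 CPM. Markers of paraxial and intermediate mesoderm, neural cells, endoderm and blood summed to at most 9.94 CPM each in any library. Of 7 pluripotency markers, 4 were tested, and 1 rose and 1 fell in Pdgfra-positive and 2 rose and 1 fell in Pdgfra-low cells. They summed to 186 to 194, 262 to 263, 81.5 to 84.7 and 79.4 to 80.7 CPM in the same order of groups, nearly all of it LIN28A and DPPA4. LIN28A rose by 1.96 ± 0.0407 and 2.38 ± 0.0391 and SOX2 fell, with means of 0.0295 and 0.0341 CPM with FGF8+10 against 0.842 and 1.32 CPM with Mock. POU5F1, a defining marker, was at most 0.102 CPM in any library and NANOG was at 0 in all FGF8+10 libraries. The part of these cells in the HOXA differences was not tested.

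Correlations between members were taken over the 8 libraries of both treatments and both gates, so they largely restate the FGF8+10 differences given above. Pearson's r of log2(CPM + 0.1) between neighbours was 0.678 to 0.898 from HOXA2 to HOXA10, -0.548 between HOXA10 and HOXA11, and 0.934 between HOXA11 and HOXA13. HOXA13 had r of -0.493 to -0.917 with the members from HOXA2 to HOXA10. Among 10039 genes outside the locus with a mean of at least 10 CPM, the one most like HOXA13 over the 8 libraries was COL1A2, a fibrillar collagen gene, with r = 0.999, and 162 genes reached at least 0.99. COL1A2 averaged 3360 CPM with FGF8+10 against 12200 CPM with Mock in Pdgfra-positive cells, and 1840 CPM against 10200 CPM in Pdgfra-low cells. NBEAL2 was most like HOXA11 (r = 0.983), BTN3A1 most like HOXA10 (0.989) and SLC7A7 most like HOXA9 (0.994). For HOXA2, HOXA3, HOXA4, HOXA5 and HOXA6 they were TRIM25 (0.982), BPHL (0.982), ZNF646 (0.982), WASH2P (0.992) and KHSRP (0.952), and for HOXA7 it was ENSG00000284691 (0.986). A high r does not mean a change of like size. ZNF646 averaged 40.4 and 40.6 CPM with FGF8+10 against 40.6 and 38.0 CPM with Mock, Pdgfra-positive cells first. KHSRP averaged 331 and 332 CPM against 326 and 316 CPM. With 8 points in 4 groups and so many genes, high values are common and describe likeness only.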

How the data were processed

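RNA sequencing was made from 8 sorted libraries in 4 groups of 2, from TRI Reagent RNA with the kit NEBNext Ultra RNA (per the labels' protocols). What the authors deposited is a single table of unnormalized counts by gene name. Per the submitters' processing notes, FastQC 0.11.8 served for quality control and HISAT2 2.1.0 for alignment, with GRCh38 as the build. Per the file headers, reads were counted with featureCounts 2.0.3 on GENCODE release 42 exons, unstranded, with both mates counted and reads over more than 1 gene dropped. How reads were trimmed is not given in the sources used here. In the table, 0 sample columns went unused, and 0 rows lacked a gene.

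Of 39416 genes with any count, 22554 passed filterByExpr. Counts were scaled by TMM (factors 1.055 to 1.065 with FGF8+10 and 0.936 to 0.952 with Mock) and fitted in R 4.3.3 with edgeR 4.0.16 (robust quasi-likelihood, a mean per group, 4 residual degrees of freedom). Of 5 two-sided contrasts, each was adjusted by Benjamini-Hochberg over all tested genes at 0.05. The SE was derived from the F statistic, as the log2 fold change over its square root. The common biological coefficient of variation was 4.06%. Replicates had r of 0.99645 to 0.9976 and differed by more than sampling noise (chi-square per gene 3.44 to 3.74, which double counting of mates also raises). TPM was computed from the counts and the exon lengths in the table. Ratios with few reads took 2 counts as 1 pair. Without molecular identifiers reads are not independent molecules, so intervals cover counting error only. Alternatives were library totals, DESeq2 1.42.0 size factors and test, limma 3.58.1 voom, no filter, the 4 libraries of a comparison, a 2-fold minimum, a replicate block, other lengths, Spearman correlation and leaving out each library. All members are described, lists tied to HOX genes are given by counts and their largest called changes, other genes where a result turns on them, marker lists by counts, sums and defining markers, and for each member the gene outside the locus with the highest r. The rule for members uses names alone, but members and lists were chosen with earlier results of these data known.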

Additional observations from a re-analysis of the deposited data

Results flagged for a closer look

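The FGF8+10 effect differed between the populations for 3 members, by edgeR's test of the difference, Pdgfra-positive minus Pdgfra-low, on the log2 scale, where 26.0% of all genes passed it. For HOXA4 it was -3.49 (adjusted p = 0.0103), from an effect of -0.01 in Pdgfra-positive and 3.48 in Pdgfra-low cells, and -2.94 (adjusted p = 0.0581) without Mock Pdgfra-low replicate 2. For HOXA5 it was -0.84 (adjusted p = 0.0344), from 0.84 and 1.68, and the call was lost in 6 of the 8 fits that left out a library (adjusted p 0.0702 to 0.167). For HOXA13 it was 0.35 (adjusted p = 6.83e-07), from -0.99 and -1.34. Groups of 2 libraries are too small for a test of single outlying libraries.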

How the results depend on the processing

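Of 50 single-gene values (10 members in 5 contrasts), 25 passed the test, and none of those 25 changed sign under any alternative run. Leaving out a library ended the call of 6 of the 25, of which 2 were FGF8+10 against Mock results (HOXA2 in Pdgfra-positive and HOXA3 in Pdgfra-low cells). With DESeq2 size factors in edgeR no call changed. Scaling by library totals raised the median of all genes by 0.173 and 0.161 (log2) for FGF8+10 over Mock (Pdgfra-positive cells first), and against that shift only HOXA4 in Pdgfra-positive cells changed sign among the members (0.16). With no filter on low counts HOXA4 there stood at 0.01 and the HOXA9 difference between the FGF8+10 effects at 0.01. Same-numbered replicates did not deviate together (r -0.00951 to 0.0345 over 10042 genes), so no effect shared by equal replicate numbers was seen. These values cannot tell whether equal numbers mark the same culture, and the labels do not say. With the replicate block, 6 members rose and 2 fell with FGF8+10 in Pdgfra-positive cells and 7 rose and 2 fell in Pdgfra-low cells, and no call changed.

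With a 2-fold minimum, 0 members in Pdgfra-positive and 1 in Pdgfra-low cells fell with FGF8+10, 0 and 2 were higher in Pdgfra-positive than in Pdgfra-low cells under FGF8+10 and Mock, and the difference between the effects was called higher for 0 and lower for 1. By limma voom, and in the 4 FGF8+10 libraries alone, 3 members were higher in Pdgfra-positive cells under FGF8+10. Lower differences between the effects numbered 1 with no filter, by voom and by DESeq2, which gave no adjusted p for HOXA4 there or under Mock between the populations.

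Leaving out each library gave 5 to 6 members that rose and 2 that fell with FGF8+10 in Pdgfra-positive cells, and 6 to 8 that rose and 2 that fell in Pdgfra-low cells. It gave 1 to 2 and 3 to 4 higher between the populations under FGF8+10 and Mock, and 1 higher and 0 to 2 lower for the difference. A group left with 1 library was assumed to vary like the others. Where a sign turned on leaving out a library, no value was called: HOXA4 ranged from -0.24 to 0.27 and HOXA6 from -0.22 to 0.42 for FGF8+10 in Pdgfra-positive cells, HOXA4 from -0.34 to 0.32, HOXA6 from -0.45 to 0.13 and HOXA9 from -0.05 to 0.24 between populations under FGF8+10, and HOXA3 from -0.37 to 0.31, HOXA7 from -2.23 to 0.29, HOXA9 from -0.16 to 0.14 and HOXA11 from -0.16 to 0.12 for the difference.

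The share of summed level from HOXA9 to HOXA13 was 83.3%, 82.4%, 93.2% and 96.2% in FGF8+10 Pdgfra-positive, FGF8+10 Pdgfra-low, Mock Pdgfra-positive and Mock Pdgfra-low cells. Over unshared exon length it was 81.2%, 80.3%, 91.9% and 95.6%, and by counts 90.9%, 90.6%, 96.9% and 98.3%. Single libraries gave 83.2% to 83.5%, 80.6% to 84.3%, 92.9% to 93.4% and 96.1% to 96.3%. By Spearman correlation the gene most like a member by Pearson was at or tied for the top for HOXA3 and HOXA11 only. Depth limits HOXA4, HOXA2 and HOXA7 in Mock Pdgfra-low cells, with 4, 21 and 17 counts over 2 libraries.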
